A study of Mus musculus with 8 samples.

Results

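The genes described here are 38 general genes of homologous recombination, Fanconi crosslink repair and DNA damage checkpoint signalling, read through the chromatin accessibility of the regions assigned to them in germ cells of the neonatal mouse testis. A member was taken from the table of ATAC-seq peaks wherever its exact symbol stood in the list of genes that the table assigns to a peak. All 38 members had at least 1 peak, among 21490 genes with an assigned peak. Together they held 642 of 328733 peaks, which fell into 130 of 87144 merged regions, a merged region being the union of peaks of any library that overlap by at least 1 bp. Coordinates are those of mm10 (GRCm38).

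ATAC-seq marks open chromatin by the insertion of a transposase. The cells were PIWIL2-eGFP positive germ cells, sorted from testes of mice that carried eGFP driven by the *Piwil2* promoter. The labels give the strain background as C57BL/6 x 129s4/SvJae, whereas the study's methods give C57BL/6 x SJL. Every animal, controls included, carried the transgene and received WIN 18,446, an inhibitor of retinoic acid (RA) synthesis, for 7 days from 2 dpp (days postpartum). The 0 h group was collected after WIN 18,446 alone, and the 18 h, 48 h and 120 h groups were collected that long after an injection of RA at 9 dpp, with 2 libraries in each group. RA moves the stalled undifferentiated spermatogonia forward together, so that time post-RA and stage of differentiation cannot be told apart, and no group of matched age without RA was among the samples.

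Homologous recombination repairs a double-strand break by copying an intact sister or homologous chromatid. The MRE11A-RAD50-NBN complex senses the end, nucleases cut it back, RPA coats the exposed single strand, and BRCA2 with PALB2, BRCA1-BARD1 and the BCDX2 and CX3 complexes prepare that strand for the search for the template. The Fanconi proteins recognise DNA strands that are crosslinked to each other and hand the resulting breaks to the same machinery, and the kinases ATM and ATR signal damage to CHEK1, CHEK2 and p53. Dividing spermatogonia use these genes for replication-linked damage, and meiotic germ cells later use many of them on the breaks of meiotic prophase.

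All libraries carried the germ cell markers, with a peak within 1000 bp of the start for 9 or 10 of 10 germ cell markers in each library. Of 9 Sertoli cell markers, 7 had such a peak in both 0 h libraries and 3 or 4 in the later ones, with summed summit values of 698 and 923 in the 0 h libraries and of 152 to 292 later. Leydig and peritubular markers had 1 or 2 of 8, and blood and endothelial markers 0 to 2 of 7 with no peak in 5 of the 6 later libraries. The libraries held 24643 to 72215 peaks. At equal tag numbers the median summit value, over the 15536 merged regions with a peak in all 8 libraries, was 224/270, 91/116, 86/102 and 166/106 from 0 h to 120 h. Values joined by a slash are those of replicate 1 and replicate 2, and 4 such pairs in a row stand for 0 h, 18 h, 48 h and 120 h. A summit value is the highest normalized tag density of a peak. Because this scale shifted between timepoints for the typical region, heights were also expressed relative to the library median, and both scales are given below. The part that cell admixture or library quality played in any result was not tested.

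Promoters from both ends of the order of relative change at the gene starts, 120 h against 0 h, are shown here. Each is given as the 250 bases before the start of the gene, 5′ to 3′ on the strand of the gene, from RefSeq on GRCm38.p6. *Bard1* (chr1:71102973-71103222, minus strand), *Rad51c* (chr11:87404507-87404756, minus strand) and *Fanca* (chr8:123318577-123318826, minus strand) had the 3 largest relative gains at their starts by 120 h among the members with a promoter entry. *Fancg* (chr4:43010302-43010551, minus strand), *Rad52* (chr6:119902448-119902697, plus strand) and *Rad51b* (chr12:79297032-79297281, plus strand) stood at the other end of that order. Their log2 changes of -0.293, -0.084 and 0.078 did not pass the threshold of the test given below. Capitals mark matches to the short motifs named after the sequences.
Bard1 promoter: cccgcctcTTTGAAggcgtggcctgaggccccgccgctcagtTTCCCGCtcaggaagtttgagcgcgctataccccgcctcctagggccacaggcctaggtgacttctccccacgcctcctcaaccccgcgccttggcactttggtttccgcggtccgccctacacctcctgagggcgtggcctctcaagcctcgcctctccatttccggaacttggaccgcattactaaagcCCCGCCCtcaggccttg
Rad51c promoter: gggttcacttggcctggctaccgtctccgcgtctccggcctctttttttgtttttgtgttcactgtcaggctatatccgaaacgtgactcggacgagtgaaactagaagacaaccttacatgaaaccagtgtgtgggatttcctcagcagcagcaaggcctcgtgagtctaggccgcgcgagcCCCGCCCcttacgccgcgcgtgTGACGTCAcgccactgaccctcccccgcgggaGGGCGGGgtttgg
Fanca promoter: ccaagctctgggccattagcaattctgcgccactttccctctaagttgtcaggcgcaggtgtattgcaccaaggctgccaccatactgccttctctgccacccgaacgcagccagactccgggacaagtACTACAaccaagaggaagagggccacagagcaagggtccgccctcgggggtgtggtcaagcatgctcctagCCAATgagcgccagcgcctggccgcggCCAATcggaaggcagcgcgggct
Fancg promoter: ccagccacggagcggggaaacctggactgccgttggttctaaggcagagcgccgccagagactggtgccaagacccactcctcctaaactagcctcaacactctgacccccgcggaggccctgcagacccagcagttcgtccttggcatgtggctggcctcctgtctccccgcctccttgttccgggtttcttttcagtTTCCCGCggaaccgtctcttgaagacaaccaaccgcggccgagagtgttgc
Rad52 promoter: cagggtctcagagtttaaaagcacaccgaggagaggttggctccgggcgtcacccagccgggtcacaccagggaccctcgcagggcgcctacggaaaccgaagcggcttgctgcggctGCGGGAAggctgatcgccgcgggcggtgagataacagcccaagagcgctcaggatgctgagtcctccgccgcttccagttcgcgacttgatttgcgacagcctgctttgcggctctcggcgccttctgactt
Rad51b promoter: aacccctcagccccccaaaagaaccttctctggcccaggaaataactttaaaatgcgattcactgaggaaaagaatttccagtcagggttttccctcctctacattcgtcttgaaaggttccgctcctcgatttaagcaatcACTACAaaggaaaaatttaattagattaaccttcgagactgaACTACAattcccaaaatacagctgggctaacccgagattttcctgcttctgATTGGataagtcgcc

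The motifs were searched on both strands, as exact letters. E2F was read as TTCCCGC, with TTGGCGC as a second form, TTCGCGC as another and TTGCCGC as the last. NRF1 was read as CATGCGC, ETS as CCGGAAG, SP/KLF as GGGCGGG, the NF-Y box as CCAAT, CRE as TGACGTC, YY1 as AAGATGG and a STAF-like element as ACTACA. CHR was read as TTTGAA, with TTCGAA as its other form. The RA receptor repeats DR5 and DR2 and a p53 half-site pair were searched by their consensus. An E2F and an SP/KLF match can share bases, and the capitals in the *Rad51c* CRE come from 1 match on each strand. The *Bard1* sequence held an E2F, an SP/KLF and a CHR match, *Rad51c* held 2 SP/KLF matches beside the CRE, and *Fanca* held 2 NF-Y boxes and a STAF-like match. *Fancg* and *Rad52* held 1 E2F match each, and *Rad51b* held 2 STAF-like matches and an NF-Y box.

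Promoter sequences were found for 30 of the 38 members. *Rad51d*, *Xrcc2*, *Rad54b*, *Rad50*, *Nbn*, *Rbbp8*, *Exo1* and *Fancd2* had no entry. An E2F match stood in 12 of the 30 member promoters (40.0%), against 15.5% of 9286 promoters of genes whose start region was open in every library and 7.89% of all 32851 promoters. The 12 were *Brca2*, *Bard1*, *Rad52*, *Blm*, *Rpa2*, *Fancb*, *Fancf*, *Fancg*, *Fancm*, *Chek2*, *Topbp1* and *Mdc1*. The sets are not fully alike. Each member gave 1 promoter entry, the nearest to its start, whereas the comparison sets held every entry of their genes. Of the 12, *Fancb* and *Fancm* had no start region open in every library. The NF-Y box stood in 60.0% of the member promoters, 37.7% of the open promoters and 33.8% of all, and the NRF1 motif in 13.3%, 6.72% and 3.24%. The SP/KLF share of 50% lay near that of open promoters (45.3%), and the ETS share of 13.3% lay below it (15.6%). No member promoter matched DR5, DR2 or the p53 pair, which were also rare among all promoters (0.0883%, 0.174% and 0.00913%). A match is a description of these 250 bases and not a bound site. Base composition was alike, with a median GC content of 58.6% in members and 60.8% in open promoters.

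**Figure D1:**
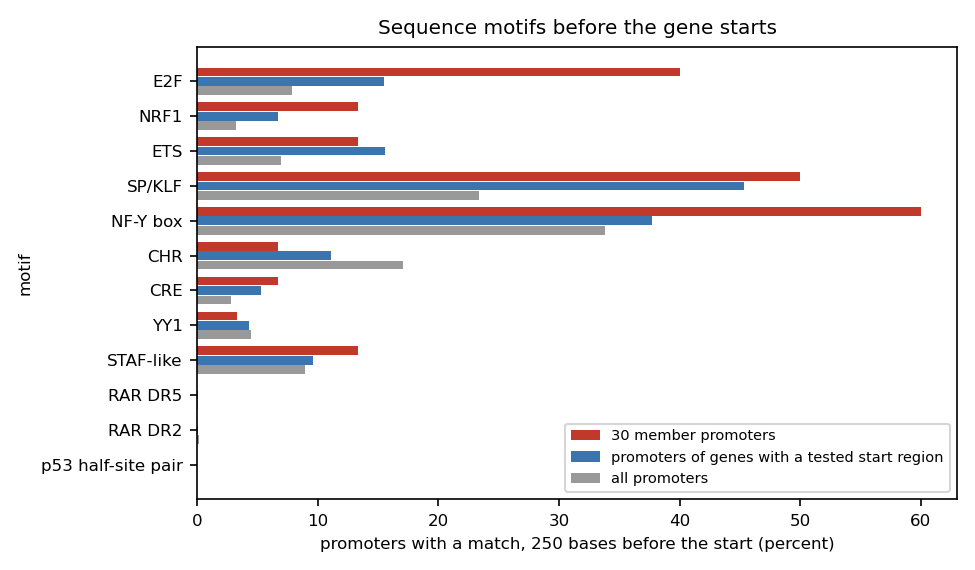
Share of promoters (percent, x axis) with at least 1 match to each motif (y axis) in the 250 bases before the start, for 30 member promoters (red), 9286 promoters of genes with a tested start region (blue) and all 32851 promoters (grey). The E2F bar of the members reached 40.0%, above the 15.5% and 7.89% of the other sets, and the DR5, DR2 and p53 bars of the members are at 0.

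The first comparison asked at which timepoints the repair genes were open. A gene counted as accessible at a timepoint when both libraries had a peak assigned to it. All 38 members were accessible at all 4 timepoints, and all 38 had a peak in each of the 8 libraries. Among all genes accessible at 1 or more timepoints, 72.8% were accessible at all 4. With only peaks of a summit value of at least 50 counted, 37 members remained, the exception being *Fancb*, which encodes an X-linked subunit of the Fanconi core complex. With only peaks inside the gene or within 1000 bp of its start counted, 37 remained as well, the exception then being *Fancm*, the DNA translocase that anchors the core complex to DNA. The peaks of *Fancm* that were left out lay at the nearby start of *Fkbp3*.

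Members were open mainly at their starts. Of the 130 member regions, 55 (42.3%) had a peak in all 8 libraries. The share was 17.8% of all merged regions and 22.6% of those assigned to a gene, as every member region is. Within 1000 bp of the start the count was 36 of 40 member regions (90.0%), beside 54.1% of all regions within 1000 bp of a start. Farther away it was 19 of 90 (21.1%), beside 10.4% of all assigned regions away from a start. Another 32 member regions were seen in a single library (24.6%, beside 26.4% of all merged regions and 24.4% of those assigned to a gene). A further 14 had a peak in both 0 h libraries and in no later library (10.8%, beside 21.4% and 17.8%).

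A start region was defined for each member as the region with peaks in all 8 libraries whose summit lay nearest to the start and within 1000 bp of it. There were 35 such regions, and 32 of them had their summit within 200 bp of the start. At a CpG island lay 32 of 35 (91.4%, beside 88.7% of all 8971 tested start regions), and the exceptions were *Rad51b*, *Rad54l* and *Trp53*. The start of another gene shared the region in 11 of 35 (31.4%, beside 14.7%). These pairs were *Atm* with *Npat*, *Atr* with *1700065D16Rik*, *Brca1* with *Nbr1*, *Chek2* with *Hscb*, *Fancd2* with *Emc3*, *Palb2* with *Dctn5*, *Rad51b* with *Zfyve26*, *Rad51c* with *Tex14*, *Rpa1* with *Smyd4*, *Trp53* with *Wrap53* and *Xrcc3* with *Zfyve21*. The height of such a region cannot be divided between the 2 genes.

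*Fancb*, *Fancm* and *Rbbp8* had no start region in this sense. The start of *Fancb* had summit values of 208/266 at 0 h, 72/92 at 18 h, 45/69 at 48 h, and 45 in 1 library of 120 h, with no peak in the other. The start of *Fancm* had 106/132 at 0 h, 84 in 1 library of 18 h with no peak in the other, 67/73 at 48 h and 115/97 at 120 h. For *Rbbp8*, which encodes the resection factor CtIP, the nearest region open in all libraries lay 23780 bp into the gene in an intron, with values of 385/440, 98/168, 146/139 and 353/207 from 0 h to 120 h.

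The number of peaks per member was highest at 0 h. The mean per library was 2.74/2.61, 1.89/1.89, 1.79/2.03 and 2.18/1.76 from 0 h to 120 h. Both 0 h values lay above all 6 later ones, and the mean at 0 h exceeded the later mean by 0.746 peaks per member, with a pooled SD between libraries of a timepoint of 0.177. All 15054 genes accessible at all 4 timepoints had means of 3.63/3.59 at 0 h and of 1.94 to 2.62 later. When the 24643 highest peaks of each library were used, so that each library contributed equally many, the members had a mean of 1.70 at 0 h and 1.77 later, and the difference was -0.0702. With equal numbers of peaks the larger count at 0 h was not seen. Because the cap removes any excess of peaks that a whole library has, it shows only that the members' share of the highest peaks was not larger at 0 h. It cannot decide whether the larger count at 0 h reflects more open regions.

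By member, 27 of 38 (71.1%, beside 75.7% of all genes accessible throughout) had fewer peaks later than at 0 h, 6 had the same mean and 5 had more. In 5 members all 6 later counts lay below both 0 h counts (13.2%, beside 32.1%). They were *Rad51d*, with 3/4 peaks at 0 h and always 2 later, *Rpa1*, with 5/3 at 0 h and 1 or 2 later, *Fancc*, with 2/4 at 0 h and 1 later, and *Fancl* and *Chek1*, with 2 in each 0 h library and 1 later. *Rad51b* had the most peaks, with 11 in both 0 h libraries and 6 to 12 later. *Rad51c*, *Xrcc3*, *Rad54b* and *Fanca* had exactly 1 peak in every library.

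**Figure D2:**
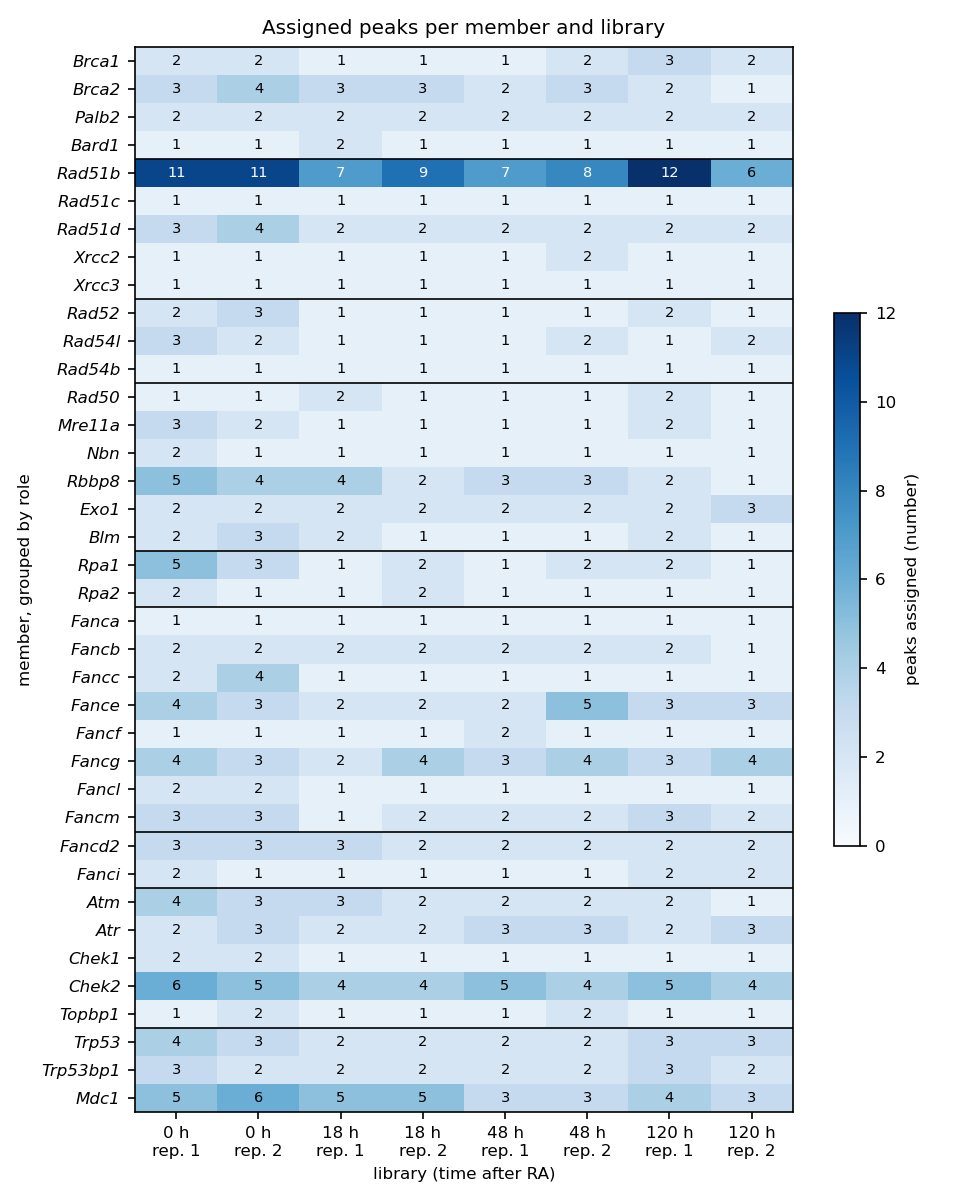
Number of peaks assigned to each of the 38 members (rows, grouped by role between black lines) in each of the 8 libraries (columns, by time post-RA), with the number printed in each cell. No cell is 0, and *Rad51b* stands apart with 6 to 12 peaks per library.

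The levels of the start regions spanned a wide range. The highest mean heights over the 8 libraries belonged to *Mdc1*, *Xrcc3* and *Chek2*. *Mdc1*, the scaffold that binds phosphorylated H2AX at breaks, had summit values of 869/1071, 370/523, 401/445 and 1057/693 from 0 h to 120 h. *Xrcc3*, a subunit of the CX3 complex, had 895/1118, 400/539, 373/406 and 1048/689 from 0 h to 120 h. *Chek2*, the kinase downstream of ATM, had 987/1133, 321/440, 348/354 and 783/537. On the deposited scale the 18 h and 48 h libraries of all 3 lay below every library of 0 h and 120 h. The library median was also lower at 18 h (91/116) and 48 h (86/102) than at 0 h (224/270). Relative to it, *Mdc1* had heights of 3.88/3.97, 4.07/4.51, 4.66/4.36 and 6.37/6.54, and *Xrcc3* 4.0/4.14, 4.4/4.65, 4.34/3.98 and 6.31/6.5. *Chek2* had 4.41/4.2, 3.53/3.79, 4.05/3.47 and 4.72/5.07. On that scale only *Chek2* had all 18 h and 48 h libraries below both 0 h libraries.

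The lowest were *Atr*, *Rad52* and *Xrcc2*. *Atr*, the kinase of replication stress, had 156/204, 51/72, 57/67 and 100/107 from 0 h to 120 h. *Rad52*, which anneals single strands, had 181/150, 65/68, 65/97 and 89/79. *Xrcc2*, a subunit of the BCDX2 complex, had 108/167, 88/86, 59/56 and 148/80. On the deposited scale both 120 h libraries of *Atr* and *Rad52* lay below both 0 h libraries, and for *Xrcc2* these groups overlapped. The library median was also lower at 120 h (166/106) than at 0 h (224/270). Relative to it, the 0 h and 120 h libraries overlapped for *Atr* (0.696/0.756 and 0.602/1.01) and *Rad52* (0.808/0.556 and 0.536/0.745). Those of *Xrcc2* did not, with 0.482/0.619 at 0 h and 0.892/0.755 at 120 h. Neighbours in the order of levels were not told apart by a test. Of the 35 member start regions 26 (74.3%) lay above the median height of all tested regions, as did 63.3% of all tested start regions.

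Relative to the library median, the median height of the 35 start regions was 1.26/1.30, 1.54/1.53, 1.40/1.37 and 1.90/1.94 from 0 h to 120 h. Both 120 h libraries stood highest. The same quantity over all tested start regions was 1.14/1.21, 1.13/1.22, 1.24/1.18 and 1.33/1.51, and it was highest in both 120 h libraries as well.

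**Figure D3:**
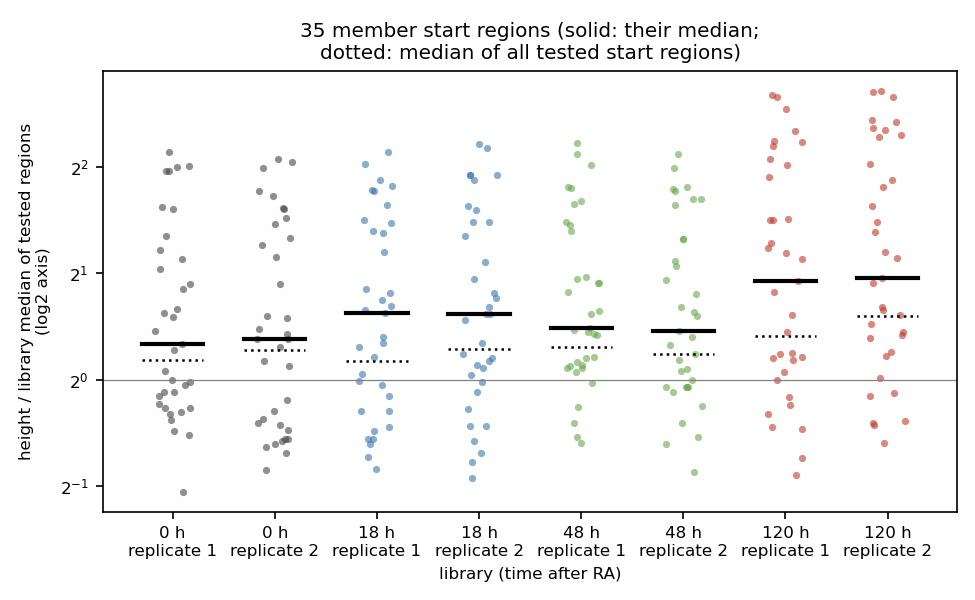
Height of each of the 35 member start regions divided by the library median of the 15536 tested regions (y axis, log2 scale) in each library (x axis). Points are regions, the solid bar is their median and the dotted bar the median of all 8971 tested start regions. The member median was 1.26/1.30 at 0 h and 1.90/1.94 at 120 h.

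Changes were tested with limma on log2 heights centred on the library median, with Benjamini-Hochberg adjustment over all 15536 regions and a threshold of 0.05. Of these regions 55 belonged to members, 35 as start regions and 20 as others. Among the 20, 11 lay within 1000 bp of the start of another gene. The comparison of 18 h with 0 h asked what RA changed first. On the deposited scale the median region fell by 1.23 (log2), and 51 of the 55 member regions were lower past the threshold, beside 92.3% of all tested regions, and none was higher (0.296%). Relative to the library median, 1 member region was higher (1.25% of all tested regions were) and none was lower (0.225%). At an unadjusted p below 0.05 there were 8 of 55 member regions and 2065 of all 15536.

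The region called higher at 18 h lay in an intron of *Rad51b*, whose product belongs with RAD51C, RAD51D and XRCC2 to the BCDX2 complex. It spanned chr12:79498995-79499375, 201886 bp into the gene, and no other gene was assigned to it. Its summit values were 202/272, 287/272, 236/285 and 260/253 from 0 h to 120 h. These values stayed within 202 to 287 in all 8 libraries, while the library median ran from 86 to 270. The relative log2 change at 18 h was 1.51 ± 0.24 (SE, n = 2 against 2, adjusted p = 0.00436, limma), and on the deposited scale it was 0.25 ± 0.37 (adjusted p = 0.501, limma). Without replicate 1 of 18 h the relative change was 1.30 and the adjusted p 0.114 (limma). This region is shown for its steady height as the 200 bases around its highest summit, chr12:79499069-79499268, plus strand of GRCm38.p6, where the only motif match is a STAF-like element on the minus strand, in capitals.
Rad51b intron: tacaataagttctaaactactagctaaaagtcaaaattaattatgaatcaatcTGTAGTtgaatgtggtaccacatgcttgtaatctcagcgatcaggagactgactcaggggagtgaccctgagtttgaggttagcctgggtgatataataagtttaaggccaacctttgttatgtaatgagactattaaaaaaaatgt

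Other regions of *Rad51b* fell after 0 h on the deposited scale. The region at its start had summit values of 223/195, 62/96, 99/77 and 174/81 from 0 h to 120 h. The intronic region at 390718 bp had 274/277, 167/137, 88/116 and 239/110. In both, all 18 h and 48 h libraries lay below both 0 h libraries, and so did the library median. Relative to the library median, both regions overlapped with 0 h at 18 h and at 48 h. The start had relative heights of 0.996/0.722, 0.681/0.828 and 1.15/0.755 from 0 h to 48 h, and the region at 390718 bp had 1.22/1.03, 1.84/1.18 and 1.02/1.14. An intronic region at 251518 bp (chr12:79548616-79549221) had 168/124 at 0 h, a peak of 44 in 1 library of 18 h and of 40 in 1 of 48 h, and none at 120 h. Of the 12 peaks of *Rad51b* in replicate 1 of 120 h, those seen in that library alone had summit values of 78, 43 and 42.

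**Figure D4:**
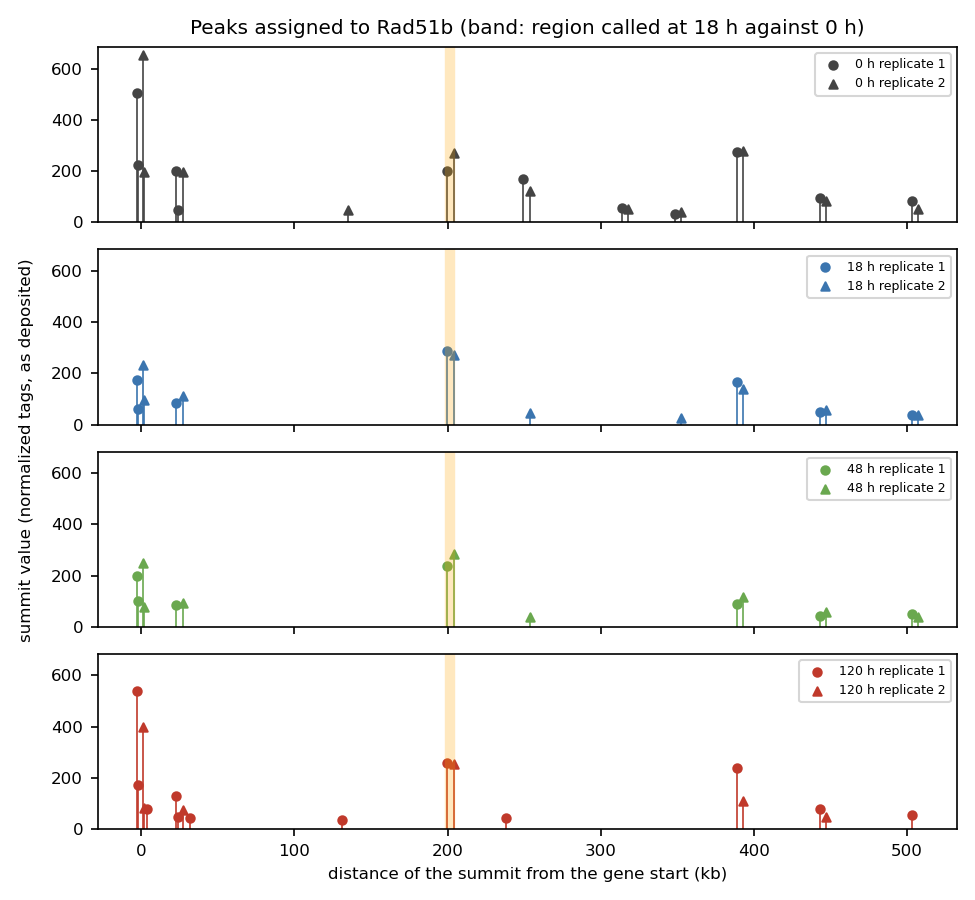
Summit values as deposited (y axis) of the peaks assigned to *Rad51b* against the distance of their summit from the gene start (x axis, kb), 1 panel per timepoint, with replicate 1 as circles and replicate 2 as triangles drawn side by side. The shaded region at 201886 bp kept values of 202 to 287 in every panel, while the region at -930 bp was highest at 0 h and 120 h, with 503/652 and 539/400.

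Between 18 h and 48 h no member region passed the threshold in either direction, and none of the 15536 regions did (0.00%). At an unadjusted p below 0.05 there were 3 of 55 member regions and 917 of all. On the deposited scale 1 region of all 15536 passed (0.00644%, lower), and it was no member.

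The comparison of 120 h with 48 h asked what changed as the cells reached the last stage. Relative to the library median, 13 of 55 member regions were higher (9.47% of all tested regions) and none was lower (7.45%). Of these, 11 were start regions, 31.4% of the 35, beside 13.1% of all tested start regions, of which 4.12% were lower. Among start regions above the median height of all tested regions, members had 11 of 26 called higher (42.3%), beside 19.2% of all. On the deposited scale the median region rose by 0.56 (log2), 22 member regions were higher (23.7% of all tested regions) and none lower (0.180%). After quantile normalization, which makes the height distribution of all libraries alike, no member region passed in either direction (0.444% and 0.386% of all tested regions). Without replicate 2 of 48 h or without replicate 2 of 120 h no member region was called higher either (0.0% and 1.17% of all tested regions), and without the latter 2 were called lower (3.23%). The count was 1 without replicate 1 of 48 h (0.635%), and 6 without replicate 1 of 18 h (5.92%), replicate 2 of 18 h (6.34%) or replicate 1 of 120 h (6.18%).

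The 4 largest gains from 48 h to 120 h belonged to *Palb2*, *Topbp1*, *Brca1* and *Bard1*. The region assigned to *Palb2*, which bridges BRCA1 and BRCA2, lay 31058 bp from its start beyond the end of the gene (chr7:122101544-122102162) and at the start of *Ndufab1*. Its summit values were 259/332, 88/138, 121/100 and 369/282 from 0 h to 120 h. From 48 h to 120 h it gained 1.05 ± 0.23 on the log2 scale (adjusted p = 0.019, limma). *Topbp1* (chr9:103304802-103305794), the activator of ATR, had 336/408, 120/186, 132/135 and 404/329 at its start from 0 h to 120 h. Its gain from 48 h to 120 h was 0.95 ± 0.21 (adjusted p = 0.0203, limma). *Brca1* (chr11:101551742-101553097), whose region is shared with *Nbr1*, had 870/922, 335/439, 275/349 and 965/669 from 0 h to 120 h. Its gain from 48 h to 120 h was 0.87 ± 0.20 (adjusted p = 0.0203, limma). *Bard1* (chr1:71102338-71103363), its partner in the ubiquitin ligase, had 227/255 at 48 h and 670/547 at 120 h, with a gain of 0.83 ± 0.20 (adjusted p = 0.0242, limma). In all 4 the 48 h and 120 h groups did not overlap on either scale, but the 4 were picked as the largest called gains. Relative to the library median the groups did not overlap in any of the 13 called regions, so the separation is no further support. Its share over all tested regions was not counted. The adjusted p (limma) of each was above the threshold after quantile normalization (0.123, 0.155, 0.418 and 0.411 in the same order). With the mean signal of the peak in place of the summit value, the gain of *Bard1* was 0.48 (adjusted p = 0.0821, limma).

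The comparison of 120 h with 0 h asked what differed between the ends of the series. It shares the 120 h libraries with the comparison above. Relative to the library median, 20 of 55 member regions were higher (23.0% of all tested regions) and 3 were lower (15.8%). All 3 lower regions were other than start regions. Of the 35 start regions 14 were higher (40.0%, beside 29.6% of all tested start regions) and none was lower (8.42%). Among start regions above the median height of all tested regions, members had 13 of 26 called higher (50%), beside 38.6% of all. Without replicate 1 of 0 h, 12 member regions were called higher (12.6% of all tested regions), and without replicate 2 of 0 h also 12 (16%). The median change of the 35 was 0.51 on the log2 scale, beside 0.32 for all tested start regions.

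The direction depended on the scale. On the deposited scale the median region was lower at 120 h by 0.75 (log2), and of the 20 regions called higher, 7 had a change above 0 and 13 below 0, from -0.32 to 0.44. None of the 55 was then higher past the threshold (0.882% of all tested regions) and 8 were lower (44.8%). After quantile normalization 8 of the 20 still passed as higher (8.74% of all tested regions) and 2 of the 3 as lower (10.2%). The 8 were the start regions of *Bard1*, *Fanca*, *Fanci*, *Rad51c* and *Rad51d* and the other regions of *Palb2*, *Rad51b* and *Trp53bp1*. All 20 kept a change above 0 there.

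The largest relative gain was in an intron of *Trp53bp1*, which encodes the break mediator 53BP1. The region lay 59386 bp from the start (chr2:121211689-121212237) and had summit values of 117/122, 57/74, 56/86 and 195/134 from 0 h to 120 h. The relative log2 change was 1.33 ± 0.21 (2.51-fold, adjusted p = 0.00072, limma). Both 120 h values lay above both 0 h values on the deposited scale also, where the change was 0.44 (adjusted p = 0.338, limma). This region gained most, and the 200 bases around its summit, chr2:121211837-121212036, plus strand, held an NF-Y box.
Trp53bp1 intron: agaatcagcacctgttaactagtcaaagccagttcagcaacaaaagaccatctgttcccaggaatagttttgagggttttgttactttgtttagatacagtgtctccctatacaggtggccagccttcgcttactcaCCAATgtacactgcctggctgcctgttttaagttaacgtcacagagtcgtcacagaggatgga

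The start regions of *Bard1* and *Rad51c* followed. *Bard1* had summit values of 460/599, 252/358, 227/255 and 670/547 from 0 h to 120 h, with a relative log2 change of 1.10 ± 0.20 (2.14-fold, adjusted p = 0.00193, limma). *Rad51c* (chr11:87404085-87405349) had 221/293, 113/120, 117/127 and 363/234, with a change of 1.09 ± 0.20 (2.12-fold, adjusted p = 0.00172, limma). On the deposited scale the 0 h and 120 h values of both overlapped. The *Palb2* region at *Ndufab1* had 259/332 at 0 h and 369/282 at 120 h, and a change of 1.03 ± 0.23 (adjusted p = 0.00468, limma).

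The 3 regions that fell were in *Fancb* and *Chek2*. The intronic region of *Fancb* at 10736 bp (chrX:164990757-164991596) had summit values of 273/284, 78/89, 40/57 and 96/42 from 0 h to 120 h. Both 120 h values lay far below both 0 h values, and the relative log2 change was -1.24 ± 0.23 (0.423-fold, adjusted p = 0.00172, limma). On the deposited scale it was -2.13. The 200 bases around its summit, chrX:164991261-164991460, plus strand, are shown for the largest fall and held no match to the motifs.
Fancb intron: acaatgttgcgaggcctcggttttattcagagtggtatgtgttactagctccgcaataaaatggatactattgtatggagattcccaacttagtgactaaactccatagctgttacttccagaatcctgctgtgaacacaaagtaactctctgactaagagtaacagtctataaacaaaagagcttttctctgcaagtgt

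The intronic region of *Chek2* at 19119 bp (chr5:110858801-110859598) had 255/282, 53/95, 64/74 and 120/51 from 0 h to 120 h, with a relative change of -0.89 ± 0.24 (adjusted p = 0.0123, limma). Without replicate 2 of 120 h it was -0.46 with an adjusted p of 0.222 (limma), and without replicate 1 of 0 h the adjusted p was 0.0589. The region at 39631 bp (chr5:110879477-110880397), at the start of *Ttc28*, had 206/357, 100/178, 79/100 and 117/70 from 0 h to 120 h. Its change of -0.69 ± 0.23 (adjusted p = 0.0326, limma) was past the threshold in 4 of the 8 fits that left out a library, and was not without replicate 2 of 0 h, replicate 1 of 48 h or either replicate of 120 h. The start region of *Chek2* itself, by contrast, changed by 0.19 ± 0.20 (adjusted p = 0.47, limma), and the difference between these regions was not tested.

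**Figure D5:**
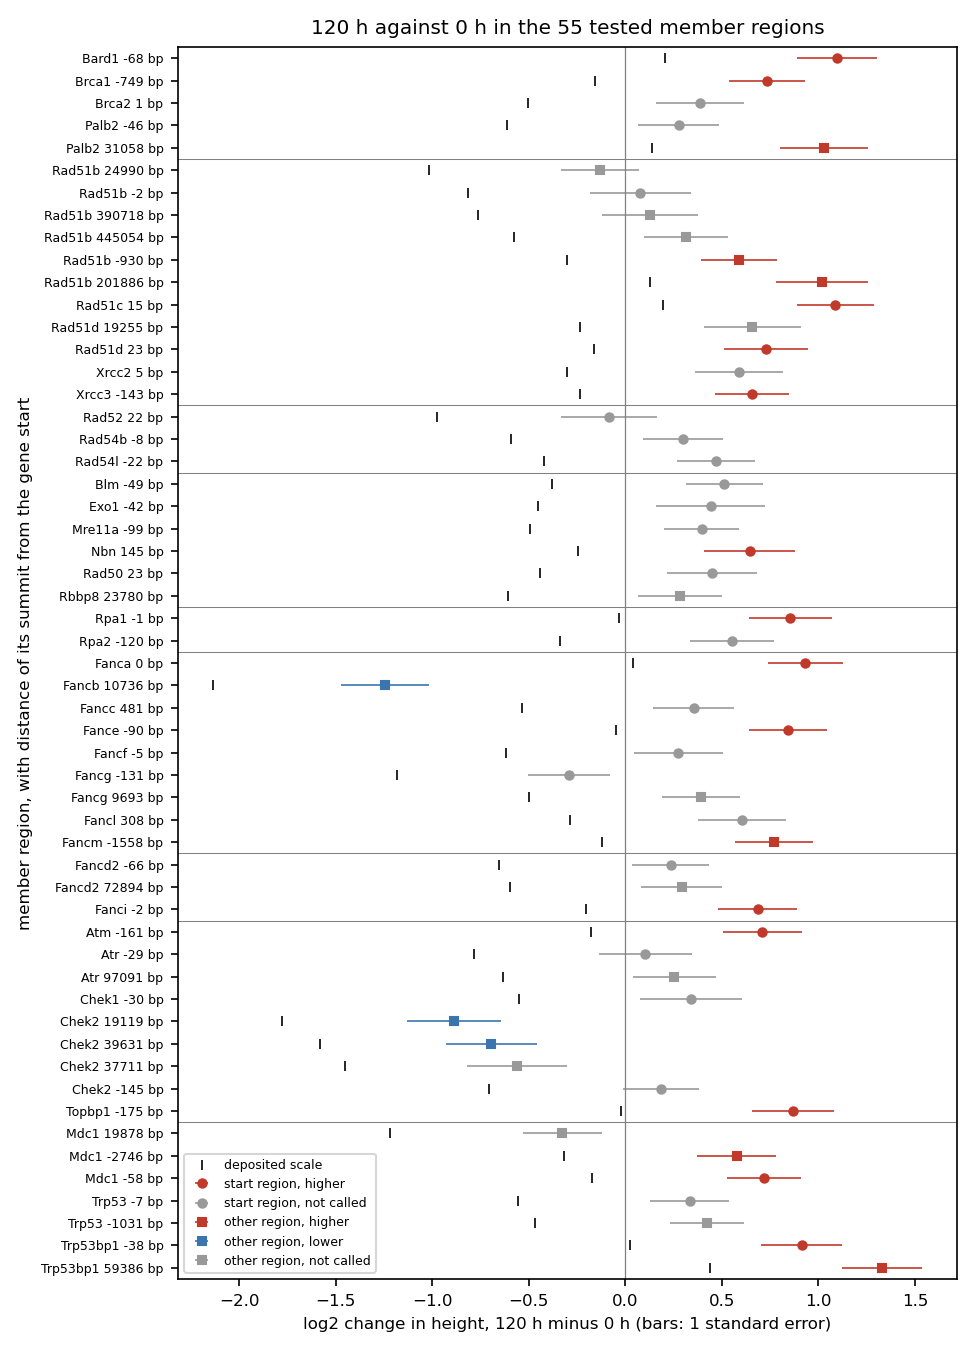
Change in height from 0 h to 120 h (x axis, log2, relative to the library median, bars 1 SE) for the 55 tested member regions (y axis, with the distance of the summit from the gene start), grouped by role. Circles are start regions, squares other regions, red and blue passed the threshold upwards and downwards, and black ticks give the same change on the deposited scale. The red symbols number 20 and the blue ones 3, and the deposited-scale ticks of 13 of the 20 lie below 0.

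The counts by role that follow stand beside 29.6% higher and 8.42% lower among all tested start regions. Each role has few start regions, and differences between roles were not tested. The BRCA proteins had 2 of 4 start regions higher at 120 h than at 0 h. They were *Bard1* and *Brca1* (0.73 ± 0.20, adjusted p = 0.0112, limma), while *Brca2* changed by 0.39 and *Palb2* by 0.28 without passing. Of 5 subunits of the BCDX2 and CX3 complexes 3 passed, *Rad51c*, *Rad51d* (0.73) and *Xrcc3* (0.66), with *Xrcc2* at 0.59 (adjusted p = 0.0551, limma) and *Rad51b* at 0.08. None of the 3 genes of strand annealing and exchange passed, *Rad54l* at 0.47, *Rad54b* at 0.30 and *Rad52* at -0.08. *Rad54l* and *Rad54b* encode DNA translocases of strand exchange.

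Among the genes that sense and resect ends, 1 of 5 start regions passed. It was *Nbn* (0.64 ± 0.24, adjusted p = 0.0444, limma), the third subunit beside *Mre11a* (0.40) and *Rad50* (0.45). The helicase gene *Blm* (0.51) and the nuclease gene *Exo1* (0.44) did not pass. Of the single-strand binding subunits *Rpa1* passed (0.86 ± 0.22, adjusted p = 0.00878, limma), and *Rpa2* changed by 0.55 (adjusted p = 0.0593, limma).

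In the Fanconi core complex, which ubiquitinates the FANCD2-FANCI pair, 2 of 6 start regions passed, *Fanca* (0.93 ± 0.19, adjusted p = 0.00345, limma) and *Fance* (0.84 ± 0.20, adjusted p = 0.00681, limma). The catalytic ligase gene *Fancl* changed by 0.60 (adjusted p = 0.0505, limma), *Fancc* by 0.36 and *Fancf* by 0.28. *Fancg* changed by -0.29 ± 0.21 (adjusted p = 0.284, limma), with summit values of 186/237 at 0 h and 122/70 at 120 h. Of the FANCD2-FANCI pair *Fanci* passed (0.69 ± 0.20, adjusted p = 0.0193, limma) and *Fancd2* changed by 0.23.

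Of 5 checkpoint genes 2 passed, *Atm* (0.71 ± 0.20, adjusted p = 0.0157, limma), whose region is shared with *Npat*, and *Topbp1* (0.87 ± 0.21, adjusted p = 0.00752, limma). *Chek1* changed by 0.34, *Chek2* by 0.19 and *Atr* by 0.10. Of the break mediators, *Trp53bp1* (0.91 ± 0.21, adjusted p = 0.00561, limma) and *Mdc1* (0.72 ± 0.19, adjusted p = 0.0117, limma) passed at their starts. *Trp53*, the p53 gene, changed by 0.33 ± 0.20 (adjusted p = 0.206, limma), with summit values of 201/304 at 0 h and 196/144 at 120 h. These are all relative changes, and on the deposited scale 31 of the 35 start regions changed by less than 0, with none past the threshold upwards and 2 downwards, beside 7 and 2851 of all 8971 tested start regions.

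A few regions away from starts appeared or were lost. An intronic region of *Exo1* (chr1:175887105-175887519) had no peak before 120 h and summit values of 42 and 35 there. A region upstream of *Fance* (chr17:28308118-28308540), also assigned to *Ppard*, had 122/85 at 120 h and none before. In the opposite direction, a region beyond *Mdc1* (chr17:35863564-35863894) had 134/112 at 0 h and none later. Another (chr17:35865662-35866409) had 166/215 at 0 h, 73/98 at 18 h and none after that. A region beyond *Fance* (chr17:28332695-28333495) had 105/145 at 0 h and 72 in 1 library of 48 h. These last 3 were also assigned to other genes, *Ppp1r18* and *Nrm* for *Mdc1* and *Rpl10a* and *Tead3* for *Fance*. The lowest summit value of any peak was 24 to 25 in each library, so that a missing peak stands for a height that was not called and not for closed chromatin.

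The other repair genes gave the following counts at 120 h against 0 h, relative to the library median. Of 22 start regions of other recombination and crosslink repair genes, 11 were higher and none lower. The counts were 4 of 10 for non-homologous end joining, which joins ends without a template, 2 of 5 for mismatch repair and 2 of 10 for p53 targets, with none lower in any of the 3. The shares among all tested start regions were 29.6% higher and 8.42% lower.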

How the data were processed

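The authors sorted PIWIL2-eGFP positive cells, and ATAC-seq libraries were made and processed by a sequencing provider. Per the submitters' processing notes and the study's methods, reads were mapped to mm10 with BWA 0.7.12, duplicates were removed, tags were extended, libraries were reduced to equal tag numbers, and peaks were called in each library with MACS2 2.1.0 without control and freed of blacklisted regions. The deposited table gives for each peak its summit signal and mean signal (normalized tag coverage), assigned genes (within 10 kb) and distances to starts. Columns of reads were not analysed here, so the depth behind a peak is unknown and no counting interval is given.

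Peaks of the 8 libraries overlapping by at least 1 bp were merged, and the highest summit per library was used. limma 3.58.1 (R 4.3.3) was fitted to log2 heights in the 15536 regions that every library called, centred on library medians, with 4 groups of 2 libraries, two-sided and adjusted after Benjamini-Hochberg. Each library came from 1 mouse. Simulated data for 120 h against 0 h held 200 changed regions among 15536. Of those, 0% were recovered at a change of 0.5 (log2), 31.5% at 1 and 99.5% at 2. Start coordinates were raised by 1. Features follow GENCODE vM21.

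Members and lists were chosen with earlier results of these data known. Values in every library are given for regions past the threshold (at most 4 rises and 4 falls per comparison), the 3 highest and 3 lowest start regions, and regions gained by 120 h or lost from summit values of at least 100. Other regions of *Rad51b* and *Rbbp8*, and *Fancb*, *Fancm*, *Fancg* and *Trp53*, were chosen after their values were seen. Alternatives were other scalings, the mean signal, a replicate block, subsets of libraries, a summit filter and an intensity trend.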

Additional observations from a re-analysis of the deposited data

How the results depend on the processing

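Counts of member regions past the threshold changed with how libraries were scaled; percentages in parentheses are the share of all tested regions in the same fit. Without centring, 18 h against 0 h gave 0 higher (0.296%) and 51 lower (92.3%), 120 h against 48 h gave 22 higher (23.7%), and 120 h against 0 h gave 0 higher (0.882%) and 8 lower (44.8%). Quantile normalization gave 0 higher for 120 h against 48 h (0.444%) and 8 higher for 120 h against 0 h (8.74%). Centring on the start regions, chosen after seeing the data, gave 4 higher (2.26%) and 2 lower (12.6%) for 120 h against 48 h, and 10 higher (8.93%) for 120 h against 0 h. For 120 h against 48 h, the 4 libraries alone gave 8 higher (8.32%), a summit value of at least 50 gave 6 higher (5.34%) and 2 lower (6.68%), and an intensity trend gave 21 higher (16.4%). Leaving out 1 library gave 0 to 1 higher for 18 h against 0 h, 0 to 10 higher and 0 to 2 lower for 120 h against 48 h, and 12 to 22 higher for 120 h against 0 h. The 48 h against 18 h counts were 0 in every fit. The cause was not tested.

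The mean number of peaks per member at 0 h exceeded the later mean by 0.417 with only peaks inside the gene or within 1000 bp of its start, and the difference was -0.0702 with the 24643 highest peaks of each library. Counts of accessible members and of regions in all libraries stayed within 1.5 times under every alternative run. The 12 called changes given with values in every library kept their direction in every alternative run, while of the 20 regions called higher at 120 h than at 0 h 7 were above 0 on the deposited scale.

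The labels do not say whether libraries with the same replicate number were handled together. Correlations of same-numbered deviations ran from -0.22 to 0.25, which cannot decide it. With the replicate block 14 regions were higher at 120 h than at 48 h (10.5%), and 21 higher (24%) and 4 lower (16.4%) at 120 h than at 0 h. In the simulated data, with 2 libraries per group and 200 of 15536 regions changed, changes of 0.5 on the log2 scale were not recovered. In the data, relative to the library median, 3568 regions were higher and 2449 lower at 120 h than at 0 h. The smallest called rise of a member region was 0.576 there. The simulated shares therefore do not give the detection limit of that comparison.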
